A study of Mus musculus with 8 samples.

Results

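The genes of MHC class I and its peptide loading pathway were followed in endothelial cells and in melanoma cells of a mouse tumor. They are 10 genes of the 28692 in the deposited matrix, chosen by name: H2-K1, H2-D1, B2m, Tap1, Tap2, Tapbp, Psmb8, Psmb9, Nlrc5 and H2-T23. MT-ret melanoma, a transplanted pigmented mouse melanoma, had been grown from fragments placed on the ventral flank of 10 mice of strain C57BL/6N, and lymphatic endothelial cells (LEC) and blood endothelial cells (BEC) of the tumors were sorted and captured in droplets, with 4 libraries listed per sort. The cell names gave the sort but no library or animal, so each sort was 1 sample and no test, p-value or replicate check was possible. Neither untreated skin nor any treatment was compared, and the sources used here state no age for the mice.

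Every value below is a count of unique molecular identifiers (UMIs), barcodes meant to count captured RNA molecules, summed over the cells of a group. CPM are the UMIs of a gene scaled to a total of 1000000 UMIs in that group. The LEC sort gave 4026 endothelial cells with a median of 10541 UMIs, and the BEC sort gave 3168 with a median of 19379.5. Pigmented melanoma cells were cells with at least 20 UMIs of Dct, Tyrp1, Pmel and Tyr together, and the LEC sort held 279 of them, with a median of 27894 UMIs. The sorts shared 34 cell barcodes. The label of each sort held in its markers: the 9 lymphatic markers summed to 33099 CPM in LEC against 190.3 CPM in BEC, while the 9 blood markers summed to 1419 CPM in LEC against 11130 CPM in BEC. Keratinocyte markers were at 0 in both, and T and NK cell markers summed to 1.34 CPM in LEC against 0.718 CPM in BEC.

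A molecule may have been counted more than once in these totals. Among the non-zero entries of genes found in few cells, values of 1, 2, 3 and 4 made up 37.3%, 23.4%, 22.4% and 14%, and a value of 5 only 0.826%. Intervals were therefore computed as if every 4 UMIs were 1 molecule. They are exact 95% intervals of counting error and take in no spread between animals.

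MHC class I molecules present peptides from inside the cell to CD8 T cells. The proteasome cuts proteins into peptides, the Tap1 and Tap2 transporter carries these into the endoplasmic reticulum, tapasin (Tapbp) holds the empty class I molecule at the transporter, and the heavy chain leaves for the surface together with beta-2 microglobulin (B2m). Interferons raise most genes of the pathway, and endothelial cells are the first cells that a circulating T cell meets in a tumor. The heavy chains H2-K1 (chromosome 17, 33996017 to 34000347, minus strand), H2-D1 (chromosome 17, 35262730 to 35267499, plus strand) and the nonclassical H2-T23 (chromosome 17, 36029773 to 36032855, minus strand) lie in the mouse MHC, given here on GRCm38, the assembly of mm10. The same chromosome holds Tapbp (33915899 to 33929292), Psmb9 (34181987 to 34187764, minus strand), Tap1 (34187553 to 34197225), Psmb8 (34197721 to 34201454) and Tap2 (34203527 to 34216321). B2m is on chromosome 2 (122147686 to 122153083) and Nlrc5 on chromosome 8 (94434356 to 94527272).

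Promoter sequence is shown for the heavy and light chains and for the bases between Tap1 and Psmb9, because these genes moved together in some cells below and apart in others. Entries for 8 of the 10 members were found in RefSeq sequence of GRCm38.p6. The bases directly before the RefSeq start were read 5′ to 3′ on the strand of the gene. RefSeq starts differ from those of the GENCODE spans above for several genes: exons of GENCODE transcripts covered 0 of the 250 bases of H2-K1, 1 of B2m, 154 of H2-T23 and all 250 of H2-D1, and all 225 bases between the RefSeq starts of Tap1 (34187556) and Psmb9 (34187330). H2-K1 and B2m are shown in full and the others by stretches of 30 bases around their motifs. Capitals mark the core of the interferon-stimulated response element (GAAA, any 2 bases, GAAA), its shorter form GAANNGAAA, the Y box CCAAT, the cyclic AMP response element half-site TGACG as in the X2 box, and GGGGATTCC (the NF-kappaB site of enhancer A), on either strand. The windows are chr17:34000348-34000597 (minus strand) for H2-K1 and chr2:122147437-122147686 (plus) for B2m. The stretches are chr17:35262923-35262952 (plus) for H2-D1, chr17:34187458-34187487 (plus, the strand of Tap1) between Tap1 and Psmb9, and chr17:36032806-36032835 and chr17:36032736-36032765 (minus) for H2-T23.
H2-K1: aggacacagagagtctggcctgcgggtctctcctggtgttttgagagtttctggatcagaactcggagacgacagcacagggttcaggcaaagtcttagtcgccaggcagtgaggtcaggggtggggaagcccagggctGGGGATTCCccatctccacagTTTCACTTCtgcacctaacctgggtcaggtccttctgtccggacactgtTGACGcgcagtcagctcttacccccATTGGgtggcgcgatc
B2m: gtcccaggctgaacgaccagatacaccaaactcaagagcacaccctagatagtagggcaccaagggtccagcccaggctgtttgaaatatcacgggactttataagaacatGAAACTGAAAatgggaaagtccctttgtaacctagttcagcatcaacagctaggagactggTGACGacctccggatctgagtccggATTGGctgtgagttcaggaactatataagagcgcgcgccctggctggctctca
H2-D1, enhancer A: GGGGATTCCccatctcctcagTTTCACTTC
Tap1 and Psmb9: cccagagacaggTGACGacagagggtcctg
H2-T23, interferon element: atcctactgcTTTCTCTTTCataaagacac
H2-T23, Y box: gttttctaaaagCCAATcagcgacgcagag

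H2-K1 and H2-D1 held the same elements in the same order, GGGGATTCC, the shorter interferon element as TTTCACTTC, TGACG and ATTGG, the Y box on the other strand, and H2-D1 held 1 more CCAAT. B2m held GAAACTGAAA, TGACG and ATTGG. H2-T23 held an interferon element, TTTCTCTTTC on the gene's strand, and CCAAT, with no TGACG in this window. Between the RefSeq starts of Tap1 and Psmb9, which are read in opposite directions, lay 1 TGACG and 1 CCAAT. Psmb8 held TTCCCAGAA, a match to the gamma-activated site core TTCNNNGAA. Tapbp held only the Y box, as ATTGG. All 250 bases of the Psmb8 window and of the Tapbp window lay in exons of GENCODE transcripts. Among 32851 promoters cut to the same 250 bases, the interferon core was in 2.98%, GAANNGAAA in 6.31%, TTCNNNGAA in 7.02%, CCAAT in 33.8%, TGACG in 17.8% and GGGGATTCC in 0.213%. The shorter interferon form and GGGGATTCC were added after the windows had been seen, and a match describes the letters, not binding.

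LEC and BEC endothelial cells were compared to ask how far the vessel types differ in the pathway. The classical molecules were at similar levels in both, and the nonclassical heavy chain H2-T23 was the member with the largest difference. H2-T23 encodes the heavy chain of Qa-1, the ligand of the inhibitory receptor NKG2A on NK cells and T cells. It was at 139 CPM in LEC against 37.3 CPM in BEC, 3.73-fold higher in LEC (3.41 to 4.09). It was the 1 member of the 9 at 10 CPM or more that was at least 2-fold higher in LEC, and 0 were lower, against 10.6% of 8236 genes higher and 8.72% lower. A share this size, near that of all genes, is not a result about the members as a group.

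The heavy chain H2-K1 was at 794 CPM in LEC against 672 CPM in BEC, a ratio of 1.18 (1.15 to 1.21). H2-D1 was at 2652 CPM in LEC against 2392 CPM in BEC, a ratio of 1.11 (1.09 to 1.13). B2m was at 3592 CPM in LEC against 3630 CPM in BEC, and the interval of its ratio held 1. Scaling by size factors moved all log2 ratios of this comparison by -0.16, which took H2-K1 to 0.08 and turned H2-D1 to -0.01, so the directions of these small differences depended on the scaling. Under that scaling H2-T23 stayed at 1.71.

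The loading genes were likewise close. Tap1 was at 42.9 CPM in LEC against 46.3 CPM in BEC, and Tap2 at 98.4 CPM in LEC against 93.5 CPM in BEC, with ratios whose intervals held 1. Tapbp was at 136 CPM in LEC against 172 CPM in BEC, a ratio of 0.786 (0.741 to 0.835), the lowest of the members. The immunoproteasome subunit Psmb8, which replaces Psmb5 in the proteasome, was at 182 CPM in LEC against 206 CPM in BEC. Psmb9, which replaces Psmb6, was at 84.8 CPM in LEC against 84.3 CPM in BEC. Nlrc5, the transcriptional activator of class I genes, was at 5.25 CPM in LEC against 2.01 CPM in BEC, a ratio of 2.61 (1.71 to 4.05) below the minimum level for a call.

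The plot of the members by cell class shows H2-T23 as the member with the widest gap between LEC and BEC. Psmb9 and Psmb8 are those at which pigmented cells lie farthest below LEC.

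**Figure D1:**
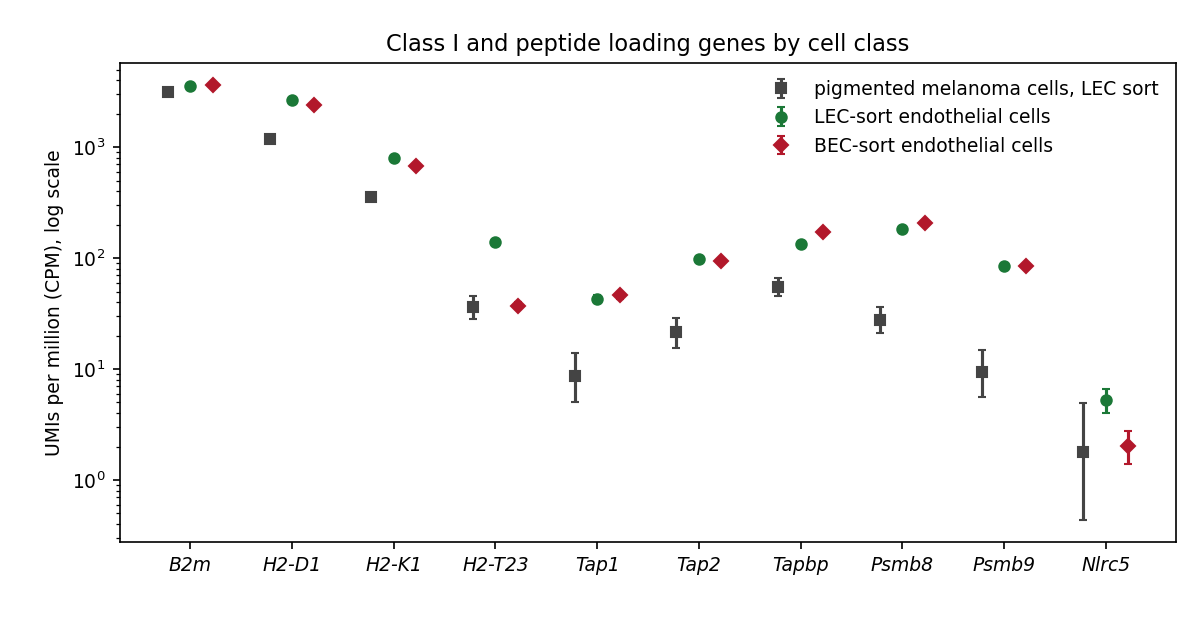
Level of each member in CPM on a log axis, for pigmented melanoma cells of the LEC sort (squares), LEC endothelial cells (circles) and BEC endothelial cells (diamonds), with exact 95% intervals of counting error. H2-T23 was at 139 CPM in LEC against 37.3 CPM in BEC, and Psmb9 at 9.41 CPM in pigmented cells against 84.8 CPM in LEC.

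Each sort held a few cells of the opposite lineage, which allowed the H2-T23 difference to be read inside a sort, after barcodes found in both sorts were left out. In the LEC sort, H2-T23 was at 143 CPM in 3892 cells of lymphatic clusters and 52.9 CPM in 101 cells of blood clusters, 2.69-fold higher (1.83 to 4.14). In the BEC sort, it was at 113 CPM in 29 cells of lymphatic clusters and 36.8 CPM in 3106 cells of blood clusters, 3.07-fold higher (1.62 to 5.28). By these ratios H2-T23 was at least 2-fold higher in the lymphatic lineage inside either sort, where 12.2% and 17% of all genes tested were. Both intervals reached below 2-fold, and the 29 cells held only 52 H2-T23 UMIs. Every LEC subset but 1 was above every BEC subset, from 76.8 to 186 CPM against 20.5 to 85.0 CPM. The subset that overlapped was LEC cluster 13, led by the cell cycle genes Cenpf and Prc1.

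Of the other class I pathway genes, 1 of 39 tested was at least 2-fold higher in LEC and 3 were lower. Over all genes, 10.6% were higher and 8.72% lower. Mr1, which presents vitamin B metabolites to T cells, was at 27.8 CPM in LEC against 8.47 CPM in BEC. Hfe, a class I-like regulator of iron uptake, was at 15.3 CPM in LEC against 56.2 CPM in BEC. The interferon gamma receptor chains were lower in LEC, with Ifngr1 at 116 CPM in LEC against 254 CPM in BEC, and Ifngr2 at 76.5 CPM in LEC against 168 CPM in BEC. Of the 7 class II genes 4 were tested, and these were higher in LEC: the invariant chain Cd74 had 59.0 CPM in LEC against 5.11 CPM in BEC, and H2-Ab1 at 37.2 CPM in LEC against 3.99 CPM in BEC. Of the most abundant interferon list genes, Ifi27l2a was at 730 CPM in LEC against 13.3 CPM in BEC, while Ly6e was at 610 CPM in LEC against 1163 CPM in BEC. Of the 24 interferon genes tested, 2 (Ifi27l2a and Cxcl10) passed 2-fold upward in LEC and 1 (Oasl2) downward. For the other class I pathway and interferon lists these shares are no higher than those of all genes. They are not a result about either list.

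Pigmented melanoma cells were compared with LEC endothelial cells of the same sort, which shared their libraries. The immunoproteasome and transporter genes were lowest relative to LEC, followed by H2-T23, Tapbp and the classical heavy chains, while B2m was nearly level. Psmb9 was at 9.41 CPM in pigmented cells and 84.8 CPM in LEC, 9.01-fold lower (5.69 to 15.2). Psmb8 was at 28.0 CPM in pigmented cells and 182 CPM in LEC, 6.49-fold lower (4.96 to 8.66). Of the 9 members tested, 8 were at least 2-fold lower and 0 higher, against 17.5% of 8478 genes lower and 12.1% higher. The median log2 ratio was -1.90 over the members and -0.12 over all genes.

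The transporter genes came next. Tap1 was at 8.64 CPM in pigmented cells and 42.9 CPM in LEC, 4.96-fold lower (3.06 to 8.62). Tap2 was at 21.5 CPM in pigmented cells and 98.4 CPM in LEC, 4.57-fold lower (3.36 to 6.38). Tapbp was at 55.2 CPM in pigmented cells and 136 CPM in LEC, 2.46-fold lower (2.02 to 3.02). The heavy chains were lower by about the same factor as each other. H2-K1 was at 356 CPM in pigmented cells and 794 CPM in LEC, 2.23-fold lower (2.06 to 2.41). H2-D1 was at 1192 CPM in pigmented cells and 2652 CPM in LEC, 2.23-fold lower (2.13 to 2.32). H2-T23 was at 36.5 CPM in pigmented cells and 139 CPM in LEC, and so stood at the BEC level of 37.3 CPM. B2m was at 3148 CPM in pigmented cells and 3592 CPM in LEC, a ratio of 0.876 (0.853 to 0.900). Nlrc5 was at 1.81 CPM in pigmented cells and 5.25 CPM in LEC, too low to call.

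The constitutive proteasome subunits did not follow the immunoproteasome. Psmb5, Psmb6 and Psmb7 stood in pigmented cells at 112%, 93.6% and 105% of their LEC level. Within pigmented cells there were 0.078 Psmb8 UMIs per Psmb5 UMI, against 0.566 in LEC and 0.618 in BEC. For Psmb9 over Psmb6 the ratio was 0.022 in pigmented cells, against 0.187 in LEC and 0.210 in BEC. Psmb10, the remaining immunoproteasome subunit, was at 59.1 CPM in pigmented cells and 101 CPM in LEC, within 2-fold. The chaperones were within 2-fold too, with Calr at 1002 CPM in pigmented cells and 551 CPM in LEC, Pdia3 at 961 CPM in pigmented cells and 738 CPM in LEC, and Hspa5 at 1165 CPM in pigmented cells and 954 CPM in LEC.

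Of the 39 other pathway genes tested, 15 were at least 2-fold lower in pigmented cells and 1, Hfe, was higher (60.7 CPM in pigmented cells and 15.3 CPM in LEC). Over all genes, 17.5% were lower and 12.1% higher. Among the lower ones were the heavy chains H2-Q4, H2-Q6, H2-Q7, H2-T22, H2-M3 and Cd1d1, the loading factor Tapbpl, the proteasome activator Psme1, and the regulators Irf1, Irf2, Nfyb, Nfkb1, Ifnar2 and Jak1. H2-Q7, the heavy chain of Qa-2, was at 14.4 CPM in pigmented cells and 133 CPM in LEC. Irf1, an interferon-induced transcription factor, was at 7.35 CPM in pigmented cells and 35.7 CPM in LEC. In the interferon list, 18 of 22 genes tested were lower and 0 higher, among them Ifitm3, Ly6e, Bst2 and Ifi27l2a.

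Endothelial RNA was present in the pigmented cells, and its part in their values was not tested. The 15 lymphatic and pan-endothelial markers stood there at 6.76% to 30.3% of their LEC level, with a median of 8.39% and the highest value for Eng. Among 202 pigmented cells with at most 1 UMI of 6 endothelial markers after thinning to 5000 UMIs, that median was 1.80% and Eng was again highest at 24.7%. In these cells Psmb9 was at 5.45%, Psmb8 at 9.10%, Tap1 at 17.4% and B2m at 88.4% of the LEC level, and 8 members were at least 2-fold lower, against 19.3% of all genes. Every member but B2m was lower in these 202 cells than in all pigmented cells of the LEC sort. Psmb9 was at 4.62 CPM against 9.41 CPM, and B2m at 3175 CPM against 3148 CPM. No doublets were removed. Set against BEC endothelial cells in place of LEC, 6 members were at least 2-fold lower in pigmented cells, against 17% of all genes, and H2-T23 and H2-K1 were not among them. Only 22 pigmented cells came from the BEC sort.

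Endothelial cells were then divided into 7 LEC subsets and 6 BEC subsets by clustering without the members, the other class I, interferon and class II genes. Every member but H2-T23 had a wider range from highest to lowest over the LEC subsets than over the BEC subsets. B2m ranged over 3.24-fold among LEC subsets (3.08 to 3.40) and over 1.64-fold among BEC subsets (1.60 to 1.69). Psmb8 ranged over 4.21-fold among LEC subsets and 2.0-fold among BEC subsets, and H2-K1 over 3.55-fold among LEC subsets and 2.74-fold among BEC subsets. H2-T23 was the exception, with 2.42-fold among LEC subsets and 4.15-fold among BEC subsets. The heat map of the subsets shows where each gene departed from the other cells of its sort.

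**Figure D2:**
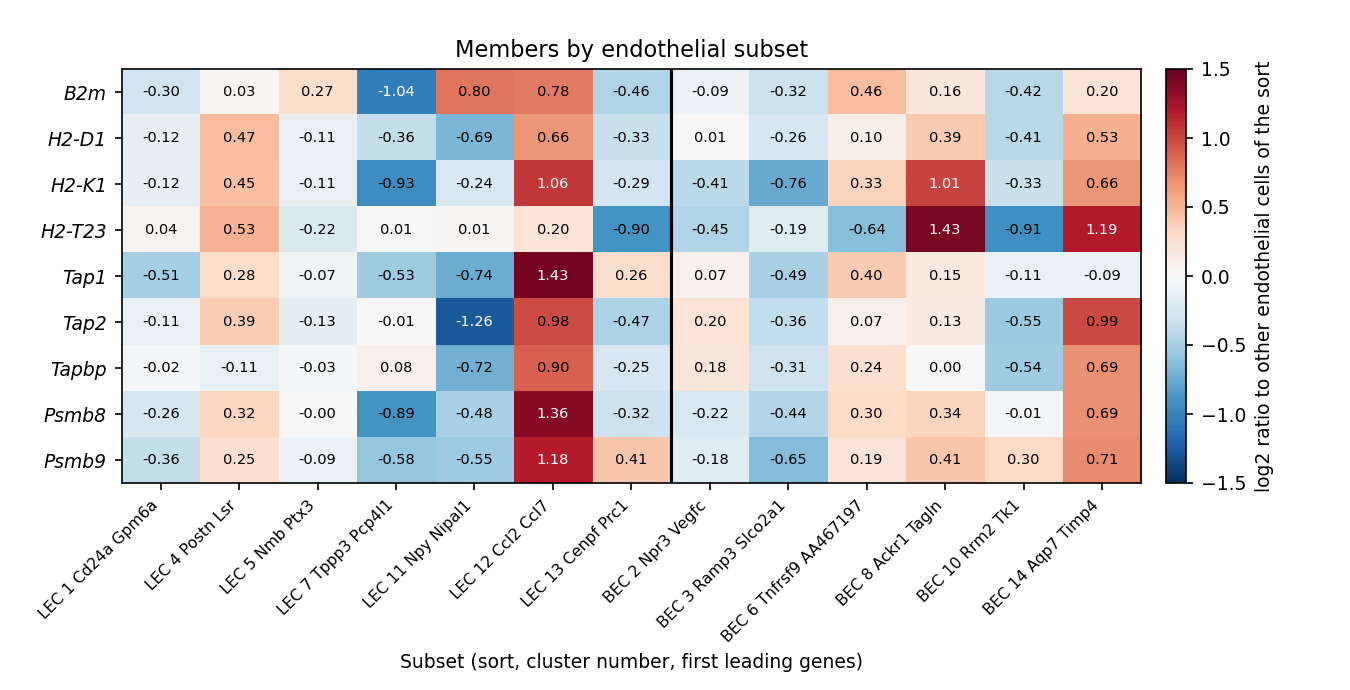
Log2 ratio (pseudocount of 1 CPM) of each member in an endothelial subset over the other endothelial cells of its sort; LEC subsets are left of the black line and BEC subsets right of it, and Nlrc5 is left out for its low level. LEC cluster 12, led by Ccl2 and Ccl7, was positive for all members shown, and LEC cluster 11, led by Npy and Nipal1, was high for B2m and low for Tap2.

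LEC cluster 12 had 174 cells led by Ccl2, Ccl7, Vcam1, Ltb and Serpina3g, genes of monocyte attraction, leukocyte adhesion and inflammation. It had the highest Ccl2 level among the LEC subsets and was set against the other LEC endothelial cells. Tap1 was at 107 CPM in this subset and 39.1 CPM in the other LEC, 2.74-fold higher (2.12 to 3.51). Psmb8 was at 432 CPM in the subset and 167 CPM in the other LEC, 2.59-fold higher (2.28 to 2.92). Psmb9 was at 181 CPM in the subset and 79.2 CPM in the other LEC, 2.28-fold higher (1.88 to 2.75). Tap1 belongs to the peptide transporter, and Psmb8 and Psmb9 to the immunoproteasome.

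H2-K1 was at 1559 CPM in the subset and 749 CPM in the other LEC, 2.08-fold higher (1.95 to 2.22). Nlrc5 was at 14.8 CPM in the subset and 4.68 CPM in the other LEC, 3.16-fold higher (1.45 to 6.21), on 41 UMIs in the subset. With Tap1, Psmb8 and Psmb9, H2-K1 and Nlrc5 made 5 of 10 members at least 2-fold higher, against 3.55% of 8039 genes, and 0 lower, against 5.95%. The median log2 ratio was 1.02 over the members and -0.10 over all genes. Size factors added 0.11 to each and brought the count to 7. Against the LEC subset next in Ccl2, cluster 11, 8 members were at least 2-fold higher, against 14.2% of all genes. Cluster 11 itself had the lowest H2-D1, Tap1, Tap2 and Tapbp of the LEC subsets. B2m was at 5982 CPM in cluster 11 and 5938 CPM in cluster 12. Tap2, Tapbp, B2m and H2-D1 were within 2-fold, at ratios of 1.99, 1.87, 1.72 and 1.59. H2-T23 was at 159 CPM in the subset and 138 CPM in the other LEC, and the interval of its ratio, 0.943 to 1.40, held 1.

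Other genes of the pathway moved with the subset. Of 39 tested, H2-Q6, H2-Q7, Psmb10, Psme2, Irf1 and Ifngr2 were at least 2-fold higher and Rfxank was lower. Over all genes, 3.55% were higher and 5.95% lower. H2-Q7 was at 416 CPM in the subset and 116 CPM in the other LEC, Irf1 at 102 CPM in the subset and 31.8 CPM in the other LEC, and Psmb10 at 229 CPM in the subset and 93.1 CPM in the other LEC. Psmb5 was at 393 CPM in the subset and 317 CPM in the other LEC. In the interferon list 17 of 27 genes were higher, and all 6 class II genes tested were, with Cd74 at 354 CPM in the subset and 41.6 CPM in the other LEC. The 11 macrophage and dendritic markers summed to 20.9 CPM in the subset, against 77.0 CPM over all LEC endothelial cells. The latter include 39 cells of a cluster led by Lyz2, Ppbp and Pf4. Of the pan-leukocyte markers, Ptprc, Cd52, Laptm5 and Cd53 were at 0 in the subset, and the level of Coro1a is not given here. No leukocyte UMI was found in 159 of the 174 cells of the subset and in 3410 of the 3852 other LEC cells. Some cells of both groups therefore held leukocyte UMIs. The 12 stromal markers summed to 983 CPM in the subset, against 214 CPM over all LEC endothelial cells, and their part in the result was not tested.

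The count of 5 depended on which genes drew the clusters. When the antigen presentation and interferon genes were let into the clustering, the LEC cluster with the highest Ccl2 had 0 members at least 2-fold higher. A separate cluster then formed, led by Cd74, H2-Aa, H2-Eb1 and Cxcl10, whose 126 LEC cells came from main clusters 12 (43 cells), 1 (38), 5 (29), 4 (14) and 7 (2). As a description only, since these genes drew it, Tap1 was at 262 CPM in that cluster and 35.8 CPM in the other LEC, and Psmb9 at 418 CPM in that cluster and 74.0 CPM in the other LEC. Ccl2 was at 871 CPM in that cluster and 823 CPM in the other LEC.

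To look past the clusters, LEC endothelial cells were thinned to 5000 UMIs each and grouped by their own class II UMIs, a grouping chosen after the values had been seen. Class II UMIs here are those of Cd74, H2-Aa, H2-Ab1 and H2-Eb1 together, not of the whole class II list. There were 3553 cells with 0, 404 with 1 to 9 and 69 with 10 or more. Psmb9 was at 71.5, 106 and 455 CPM over these groups, Tap1 at 34.4, 64.4 and 212 CPM, and Psmb8 at 153, 236 and 867 CPM. B2m was at 3207, 5023 and 10078 CPM and H2-K1 at 717, 1074 and 2574 CPM. Psmb5 was level, at 318, 279 and 330 CPM. The cells with the most class II UMIs were thus the highest for every member. Leukocyte UMIs of these 69 cells are not given here. The LEC cells grouped include those of the cluster led by Lyz2, Ppbp and Pf4.

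**Figure D3:**
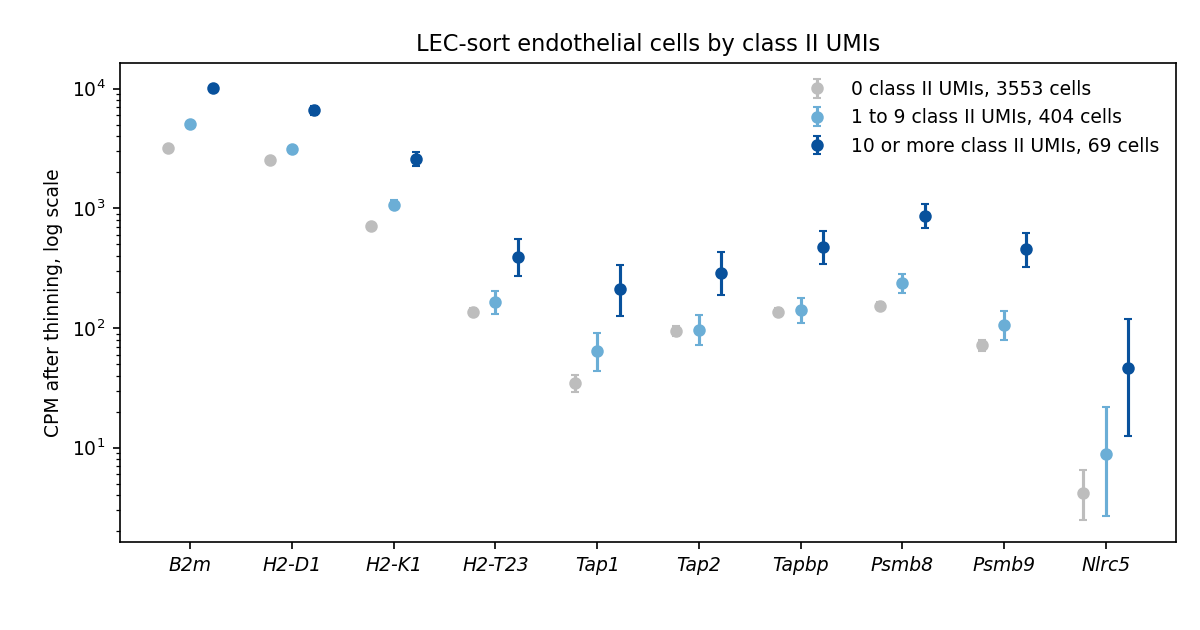
Level of each member (CPM after thinning, log axis, exact 95% intervals of counting error) in LEC endothelial cells with 0, with 1 to 9 and with 10 or more class II UMIs. These are the UMIs of Cd74, H2-Aa, H2-Ab1 and H2-Eb1 together. In each gene the 69 cells with 10 or more class II UMIs are highest, with B2m at 10078 CPM against 3207 CPM in cells with 0.

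The same order held outside cluster 12, where 43 cells had 10 or more class II UMIs. There Psmb9 was 5.33-fold, Tap1 4.87-fold and B2m 2.86-fold above cells with 0. Only 3 BEC endothelial cells and 0 of 279 pigmented cells reached 10, and a count of 0 allows a share of up to 1.08%. The median UMI count of the interferon list was 35, 34 and 79 over the 3 groups of all LEC, so it was higher only in the group with the most class II.

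Grouped by the interferon list itself, the members named below for each sort stood higher in its top bin. Nlrc5 is left out here for its low level. In LEC, after thinning and division into 4 bins by interferon list UMIs, the top bin stood above the bottom bin by 3.67-fold for Tap1, 3.51-fold for Psmb8, 2.78-fold for Psmb9, 1.59-fold for B2m and 1.57-fold for H2-D1. In BEC, the order was another one, with H2-K1 at 2.83-fold, H2-T23 at 2.79-fold, Psmb9 at 2.45-fold, Psmb8 at 2.35-fold and B2m at 1.77-fold. The constitutive subunits Psmb5, Psmb6 and Psmb7 stayed between 0.83-fold and 1.11-fold in every bin of both sorts. Cluster 12 made up 7.90% of the top bin of LEC. The difference between the sorts in these orders was not tested, and neither was the part of the BEC subsets in the BEC bins.

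**Figure D4:**
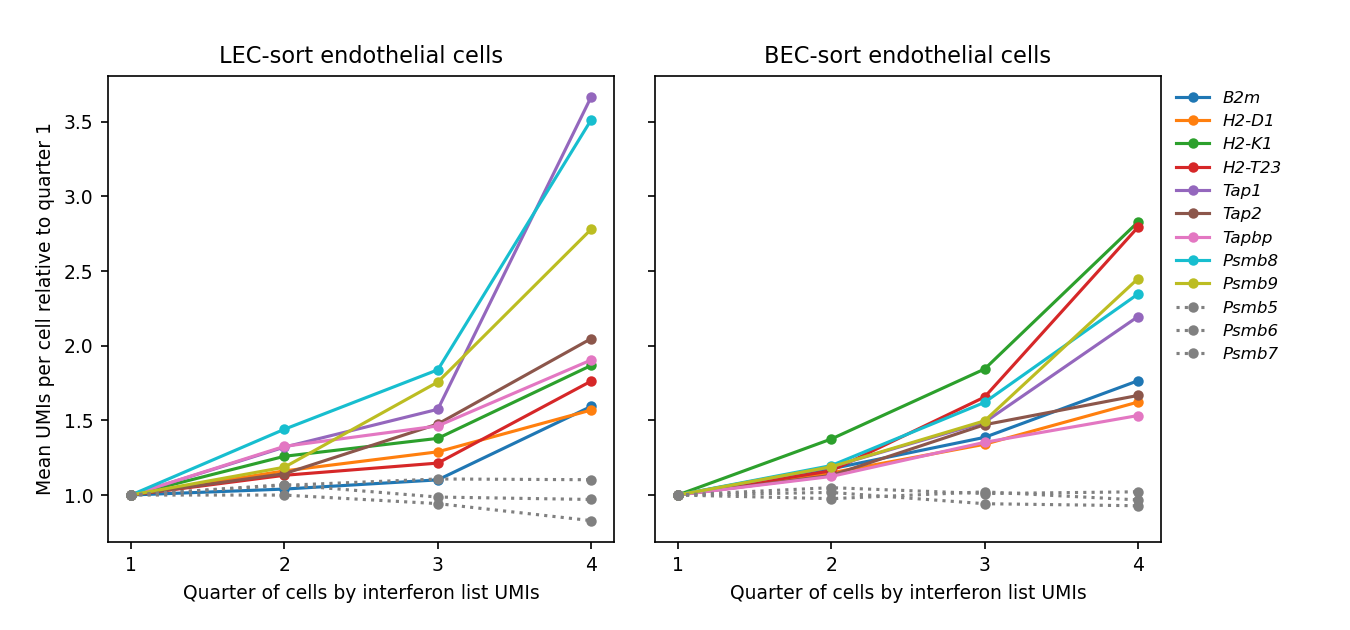
Mean UMIs per cell of each member but Nlrc5, after thinning to 5000 UMIs, in LEC (left) and BEC (right). Values are relative to the lowest of 4 bins of cells by interferon list UMIs. Dotted lines are the constitutive subunits Psmb5, Psmb6 and Psmb7. Tap1 reached 3.67-fold in LEC and 2.20-fold in BEC, and the dotted lines stay near 1.

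Light chain and heavy chain parted in some LEC subsets. LEC cluster 11, 231 cells led by Npy, Nipal1 and Pgf, had the highest B2m of all subsets, 5982 CPM, and the lowest H2-D1, 1683 CPM. Its B2m was 1.74-fold that of the other LEC and its Tap2 2.42-fold lower (1.71 to 3.55), the 1 of 9 members called there. As 15.9% of all genes were lower in that subset, a share this size is not a result about the members. It also had the lowest Tap1 (25.9 CPM), Tap2 (42.1 CPM) and Tapbp (83.9 CPM). LEC cluster 7, led by Tppp3 and Pcp4l1, had the lowest B2m, 1847 CPM, beside 2121 CPM of H2-D1. B2m was the 1 of 9 members called lower there (2.06-fold, 1.97 to 2.14), against 4.01% of all genes. A count of 1 is not a result about the members as a group. Counted against each other within a group, there were 3.55 B2m UMIs per H2-D1 UMI in LEC cluster 11 and 0.871 in LEC cluster 7, against 1.35 over all LEC. In pigmented cells the ratio was 2.64, against 1.52 in BEC. The 9 lymphatic markers summed to 9655 CPM in cluster 11 and 64402 CPM in cluster 7, and the macrophage and dendritic markers to 170 CPM in cluster 11 and 29.1 CPM in cluster 7. Their part in the difference was not tested.

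**Figure D5:**
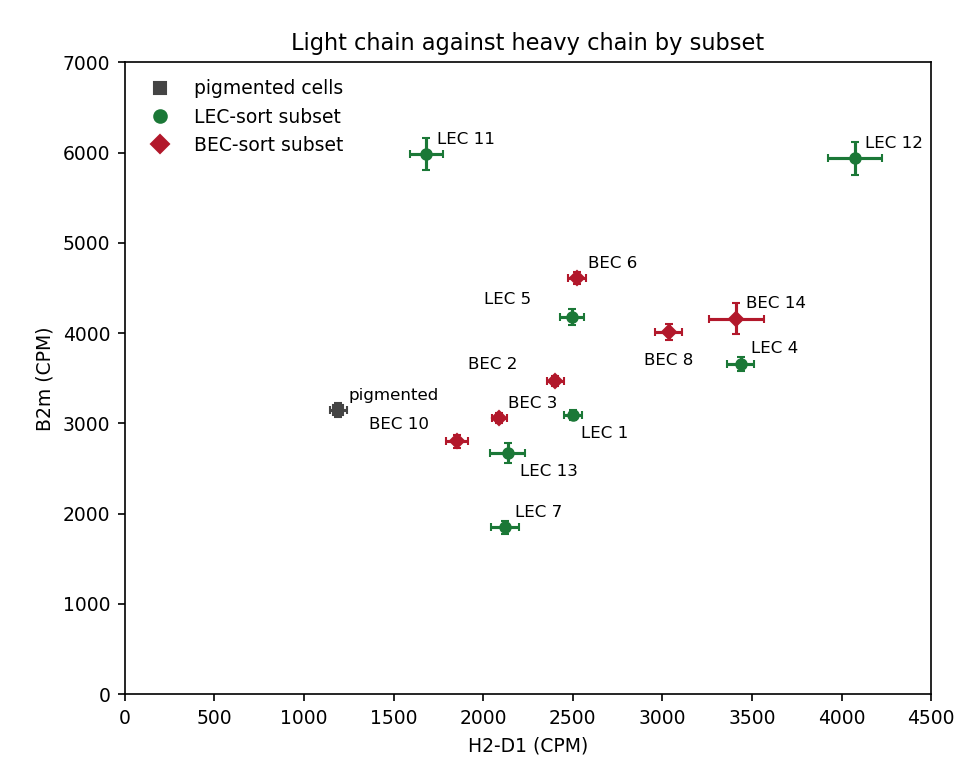
B2m level against H2-D1 level, both in CPM with exact 95% intervals of counting error, for pigmented cells (square), LEC subsets (circles) and BEC subsets (diamonds), numbered by cluster. LEC 11 and LEC 12 had 5982 and 5938 CPM of B2m, beside 1683 and 4073 CPM of H2-D1.

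Among BEC subsets, different clusters led for different members. BEC cluster 6, 613 cells led by Tnfrsf9 and Apln, had the highest B2m, 4608 CPM, and the highest Tap1, 57.2 CPM. BEC cluster 8, 403 cells led by Ackr1, Tagln, Sele and Selp, genes of which the selectins and Ackr1 mark venules, had the highest H2-K1 of the BEC, 1213 CPM, and the highest H2-T23, 85.0 CPM. These were 2.02-fold and 2.74-fold above the other BEC, the 2 members called higher there against 5.13% of all genes, though with size factors H2-K1 fell short of 2-fold. BEC cluster 14, 141 cells led by Aqp7, Timp4 and Gja5, had the highest H2-D1 (3411 CPM), Psmb8 (326 CPM), Psmb9 (136 CPM), Tap2 (182 CPM) and Tapbp (273 CPM) of the BEC. H2-T23, at 82.9 CPM, was the 1 member called higher there (2.32-fold, 1.68 to 3.13), against 6.98% of all genes. All members but Nlrc5 were tested there, so a count of 1 is not a result about the members as a group. Its Psmb8 per Psmb5 UMI was 1.13, next to 1.10 in LEC cluster 12. The lowest values were in BEC cluster 3 (H2-K1 443 CPM, Psmb9 59.0 CPM) and in BEC cluster 10, led by the cell cycle genes Rrm2 and Tk1 (H2-D1 1853 CPM, H2-T23 20.5 CPM). Clusters 2, 3, 6 and 14 of the BEC overlapped with their best match under other clustering settings by a Jaccard index as low as 0.43, 0.42, 0.51 and 0.57, so their borders are less firm than those of clusters 8 and 10.

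Neighbours in the order of the 13 subsets often could not be told apart by counting error. For B2m 4 of 12 neighbouring pairs had a ratio interval that held 1, for H2-D1 5, for H2-K1 6, for Tap2 9, for Tapbp, Psmb8 and H2-T23 10, for Tap1 and Psmb9 11, and for Nlrc5 12. Across the 13 subsets H2-D1 and Tap2 were the most alike of the members (Pearson r of 0.92), followed by Tap2 and Tapbp (0.88) and by Psmb8 and Psmb9 (0.87). H2-T23 and Tapbp were the least alike (-0.16). Outside the pathway lists, the genes most like the mean of the members were Vcam1 (r of 0.91), Cxcl16 (0.90), Krt18 (0.88), Gm4951 (0.87) and Ripk2 (0.86). These coefficients describe 13 groups of cells from 2 sorts that share libraries, and LEC cluster 12 was the highest subset for all 5 genes.

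Some counts depend on how reads were assigned. H2-K1, H2-D1 and the H2-Q and H2-T genes are related in sequence, so the split of reads among them is uncertain. How alike they are was not measured here. The sources used here do not state whether counting used the strand. Tap1 and Psmb9 overlap at their starts, and the gene Zbtb22, which overlaps Tapbp, was at 17.2 CPM in LEC against 21.5 CPM in BEC, while the other genes that overlap members were at 3.20 CPM or less.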

How the data were processed

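The authors deposited 1 matrix of raw UMI counts per gene and cell, with 28692 genes and 7635 cells (4407 LEC, 3228 BEC). Per the labels' protocols, libraries were made with the 10x 3′ v2 kit; Cell Ranger 2.1.1 and mm10 are named, per the submitters' processing notes. The sources used here do not state the authors' cell filter, and no further filter was applied. No doublet caller was run. The members, lists and most groupings were chosen with earlier results of these data known.

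Cells of both sorts were clustered on 2000 variable genes without members, other class I, interferon, class II and mitochondrial genes (30 principal components, 15 neighbours, Leiden resolution 1; scanpy 1.11.5, scikit-learn 1.9.0, python-igraph 0.11.9, Python 3.11.15, numpy 2.4.6, scipy 1.17.1, pandas 2.3.3, matplotlib 3.10.9). Of 16 clusters, those led by melanocytic or stromal markers were not counted as endothelial, and 93 LEC-sort cells in the pigmented cluster but under the gate were in neither class. The rule asked for at least 3 leading genes from 1 non-endothelial list. Cluster 16, with 39 LEC-sort and 2 BEC-sort cells led by Lyz2, Ppbp and Pf4, fell short of it. Its cells were counted as endothelial, though as too few for a subset. Subsets had at least 50 cells. UMIs were summed per group. A gene was tested at 10 CPM or more in the higher group and called at a 2-fold ratio with a pseudocount of 1 CPM. CPM have exact Poisson, ratios exact conditional binomial and shares Clopper-Pearson intervals at 95%. All 10 members are named, and of the lists the most abundant genes and the class I pathway genes called in a comparison, except 1 gene called in pigmented cells that is not reported here. Positions are from GENCODE M21. Ratios, intervals and clustering were tested on simulated data. The clustering recovered clusters whose markers were spread over expression ranks, but not clusters whose markers all lay at neighbouring ranks.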

Additional observations from a re-analysis of the deposited data

Results flagged for a closer look

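The BEC sort, a sort for blood endothelial cells, held 22 pigmented cells, 0.682% of its 3228 cells (0.428 to 1.03%, Clopper-Pearson), above the 0.0929% that a count of 0 would allow. They entered no comparison because they were too few. B2m was at 2921 CPM in them, H2-D1 at 878 CPM, H2-K1 at 309 CPM and Psmb8 at 46.9 CPM, and a single cell held 45% of the Psmb8 UMIs. The 9 blood endothelial markers summed to 1178 CPM in these cells.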

How the results depend on the processing

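No called member changed sign among the alternatives run. Without a minimum level, LEC over BEC gave 2 higher members in place of 1, because Nlrc5 was added. For the Ccl2-high LEC subset, 9 members were called at a fold of 1.5, 0 when antigen presentation and interferon genes were let into the clustering, and 8 against the LEC subset next in Ccl2 (where 14.2% of all genes were higher), against 5; the last was chosen after seeing the data, as was the comparison of lineages inside a sort. The other 74 counts of calls stayed within 1.5 times, from 4 to 7 higher for that subset and from 6 to 9 lower for pigmented cells. Of single log2 ratios, 14 of 140 for LEC over BEC changed sign, all with a size of 0.15 or less, 2 of 110 for the subset (B2m -0.01 against the next subset, H2-T23 -0.21 with the wider clustering), and 0 of 140 for pigmented cells. The pigmented ratio of H2-T23 was -0.03 against BEC and -1.90 against LEC. No paired analysis was possible because the cell names carry no library number, and leaving out a library could not be run. Counts of a molecule in several libraries would narrow the true depth, and Nlrc5 (262 UMIs in LEC, 140 in BEC) was limited by depth.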
